A study of Mus musculus with 24 samples.

Results

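The seminal vesicle secretory protein cluster is a run of genes on mouse chromosome 2 that encode the main proteins of seminal vesicle fluid. The 6 genes annotated on the array as Svs2, Svs3a, Svs3b, Svs4, Svs5 and Svs6 were followed, out of 341 genes measured. They were chosen by their levels on these same arrays, where some of them were high on a few arrays, so their adipose and muscle levels are described below without support from a test. They held 24 of 3919 exon rows, which reduced to 23 of 3099 exon features once rows with identical coordinates were averaged, and 118 of 13388 probes.

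The seminal vesicle is a male accessory gland, and its epithelium makes and secretes a few proteins in very large amounts under the control of androgens. After ejaculation some of them are cross-linked by transglutaminase into the copulatory plug. The genes belong to the rapidly evolving family that includes the human semenogelins, and they sit beside genes for whey acidic protein and Kunitz-type protease inhibitors.

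RNA of 24 samples was hybridised to NimbleGen slides made for this study, with 12 arrays on each. The samples fall into 8 groups of 3: the inbred background strain, labelled B6, and the B6.S-2 congenic strain, which carries a chromosome 2 segment of another mouse strain on that background, each in whole brain, liver, epididymal adipose tissue and gastrocnemius muscle. The series design text states 3 biological replicates per group. The labels give no ages, and 1 protocol text serves all samples: it names F2 mice, chow, and high fat food for some congenic males, and ties no sample to a diet or a sex. The treatment field calls all 24 samples congenic, so the genotype of each array rests on its title. Brain and liver were on the first slide and adipose tissue and muscle on the second, so slide and tissue cannot be told apart between these pairs of tissues, while both genotypes lay on each slide. The median raw intensity per array was 232 to 1237 on the first slide and 916 to 3571 on the second.

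The deposited files disagree about which replicate number is which array, and this touches the arrays described below. Each per-sample file was compared with the 3 columns of its own group in the authors' probe-level value table, over 475 transcripts that leave out the Svs genes. The file correlated best with the column of its own number in 7 of 24 cases and with another column of its group in 17. The file of congenic adipose 1 matched column 3 of its group (r = 0.96, against 0.84 and 0.81 for columns 1 and 2). The file of congenic muscle 3 matched column 1 of its group (r = 0.92, against 0.84 and 0.85). Set against all 24 columns, each of the 24 files correlated best with a column of its own group, and each with a different column. For congenic adipose 1 the highest r with a column of another group was 0.84, and for congenic muscle 3 it was 0.83. The 2 sources thus agree on the groups and differ in the numbers. Unless the value table is named, replicate numbers below are those of the per-sample files.

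The promoters are shown first, since 4 of the 6 genes were high together on the same arrays. RefSeq start sites on GRCm38.p6 matched 6 of 6 genes, and the last 120 bases before each start are given 5′ to 3′ on the strand of the gene, with TATAAA and GATAAG on that strand in capitals. The windows are chr2:164278308-164278427 (minus strand) for Svs4, chr2:164332645-164332764 (plus) for Svs5, chr2:164316631-164316750 (plus) for Svs6, chr2:164289147-164289266 (plus) for Svs3a, chr2:164256644-164256763 (minus) for Svs3b and chr2:164238342-164238461 (minus) for Svs2.
Svs4: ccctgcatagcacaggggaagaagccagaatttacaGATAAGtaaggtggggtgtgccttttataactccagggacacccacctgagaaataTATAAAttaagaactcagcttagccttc
Svs5: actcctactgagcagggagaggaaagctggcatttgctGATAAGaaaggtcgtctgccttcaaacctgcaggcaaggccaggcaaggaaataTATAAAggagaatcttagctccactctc
Svs6: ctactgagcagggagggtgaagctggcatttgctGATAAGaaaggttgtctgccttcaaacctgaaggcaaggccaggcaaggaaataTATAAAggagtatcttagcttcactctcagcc
Svs3a: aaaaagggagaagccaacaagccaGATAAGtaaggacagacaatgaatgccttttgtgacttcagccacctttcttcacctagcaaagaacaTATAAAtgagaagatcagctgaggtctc
Svs3b: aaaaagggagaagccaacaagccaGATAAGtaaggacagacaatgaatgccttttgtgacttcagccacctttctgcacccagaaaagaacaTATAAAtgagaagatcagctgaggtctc
Svs2: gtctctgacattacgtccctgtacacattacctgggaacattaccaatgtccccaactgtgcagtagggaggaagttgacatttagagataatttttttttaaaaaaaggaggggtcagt

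A TATAAA box, the element that positions the transcription machinery, lay on the strand of the gene between 35 and 21 bases before the start in 5 of these windows, against 1.71% of 32851 RefSeq promoters. Svs2 was the exception: it had TATAAA farther out, at 236 to 231 and at 205 to 200 bases before its start. Over the whole 250 bases upstream, searched on both strands, TATAAA was found in 6 of 6 members and in 12.4% of all promoters. GATAAG, the core of a GATA-factor site, was chosen for the search after the sequences were read. It occurred on one strand or the other in 5 of 6 members, again without Svs2, and in 6.55% of all promoters. TGTTCT, an arm of the androgen receptor element, occurred in 4 of 6 (Svs3a, Svs3b, Svs5 and Svs6) and in 16.1% of all promoters. The full palindrome, AGAACA and TGTTCT spaced by 3 bases, occurred in 0 of 6 and in 0.00913% of all. These motifs did not overlap one another in the printed windows. Aligned over the 250 bases, Svs3a and Svs3b shared 97.6% of aligned positions, Svs5 and Svs6 shared 93.3%, and the other pairs shared 44.7% to 58.0%. Svs3a and Svs3b, which carry TATAAA near the start and GATAAG, differed little between arrays. Svs4, Svs5 and Svs6, which carry them too, were high on the arrays described next. So was Svs2, which has neither and shared 44.7% to 49.3% with the other promoters. The genes were chosen by these levels, and a link between promoter and level was not tested.

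Svs4 encodes a small basic secreted protein of the fluid. Gene levels are log2 normalized intensities, summarised over the exon features of a gene, on which a difference of 1 is a doubling. The level of Svs4 was 11.01, 9.55 and 10.27 on the 3 B6 adipose arrays and 12.43, 11.21 and 11.44 on the 3 congenic adipose arrays. It was 9.49, 9.85 and 9.70 in B6 muscle and 9.56, 9.60 and 12.89 in congenic muscle. In brain it was 8.93, 9.14 and 9.28 in B6 and 9.07, 9.13 and 9.06 in congenic mice. In liver it was 9.47, 9.09 and 9.00 in B6 and 9.20, 9.46 and 8.96 in congenic mice. Congenic muscle 3 and congenic adipose 1 were the highest of the 24 arrays, and the other congenic muscle arrays lay among the B6 muscle arrays. In adipose tissue the lowest congenic array stood above the highest B6 array.

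Svs5 encodes another small secreted protein of the gland. Its level was 9.19, 8.24 and 8.35 in B6 adipose tissue and 11.29, 9.74 and 9.56 in congenic adipose tissue. It was 8.31, 8.50 and 8.31 in B6 muscle and 8.31, 8.39 and 11.41 in congenic muscle. All 12 brain and liver arrays lay between 7.94 and 8.34. The same pair of arrays was highest as for Svs4, and the genotypes again did not overlap in adipose tissue, where B6 adipose 2 and B6 adipose 3 were not above the muscle arrays.

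Svs6, which is close to Svs5 in its promoter, was 7.95, 7.06 and 7.86 in B6 adipose tissue and 9.78, 8.35 and 8.20 in congenic adipose tissue. It was 7.20, 7.43 and 7.14 in B6 muscle and 7.45, 7.48 and 9.75 in congenic muscle. The 12 brain and liver arrays lay between 7.07 and 8.52. The highest of these 12 was B6 liver 1, and without it the brain and liver arrays did not pass 7.60. Svs6 did not overlap between genotypes in adipose tissue.

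Svs2 encodes the semenogelin-like clotting protein that forms much of the copulatory plug. Its level was 9.17, 7.90 and 8.64 in B6 adipose tissue and 10.81, 9.31 and 9.02 in congenic adipose tissue. It was 8.18, 8.25 and 8.31 in B6 muscle and 8.14, 8.18 and 10.45 in congenic muscle. Brain and liver arrays lay between 7.84 and 8.45. Here the genotypes overlapped in adipose tissue, since B6 adipose 1 stood above congenic adipose 3.

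Svs3a and Svs3b encode the closely related SVS III proteins, which are also cross-linked into the plug. Svs3a lay between 9.03 and 9.84 on all 24 arrays, and Svs3b between 7.93 and 8.99. Congenic adipose 1 was the highest array for both, at 9.84 and 8.99. Congenic muscle 3 was not set apart: Svs3a was 9.43 there and 9.45 on congenic muscle 1, and Svs3b was 8.57 there and 8.71 on congenic muscle 1. The genes are close copies, and how far their probes tell them apart was not tested.

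**Figure D1:**
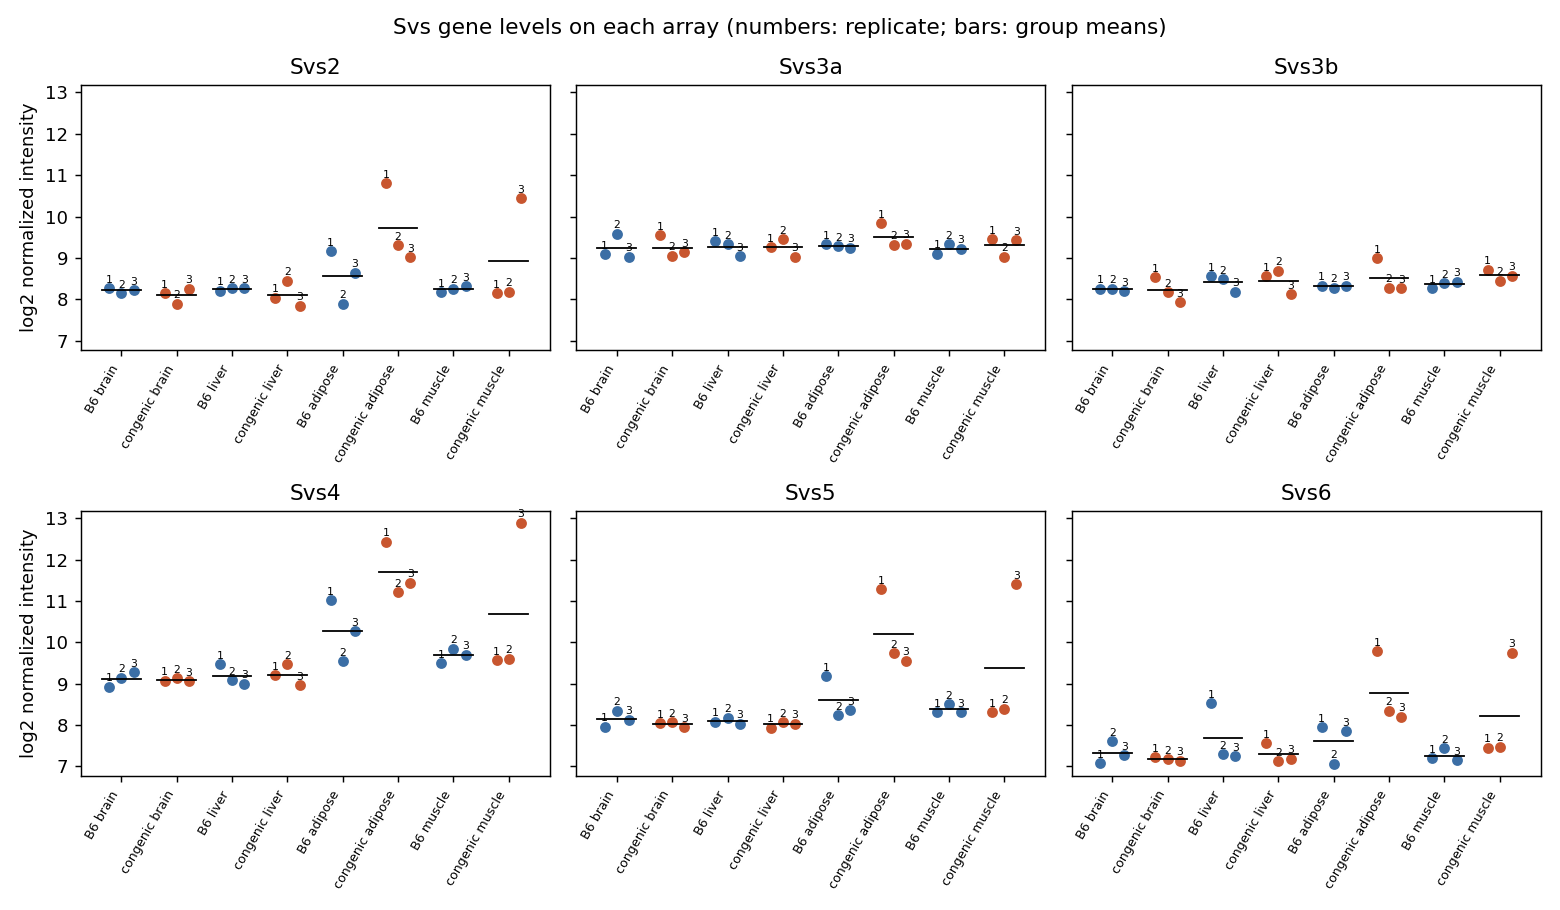
Log2 normalized intensity of the 6 Svs genes (vertical axis, 1 panel per gene) on each of 24 arrays, by genotype and tissue (blue, B6; orange, congenic; digits, replicate numbers; bars, means of 3 arrays). Congenic adipose 1 and congenic muscle 3 stand at 12.43 and 12.89 for Svs4 and at 11.29 and 11.41 for Svs5, while Svs3a stays between 9.03 and 9.84.

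Congenic adipose 1 and congenic muscle 3 were both above each of the other 22 arrays in 4 of the 341 genes (1.17%), and these were Svs2, Svs4, Svs5 and Svs6. The values chose the members, so nothing is read from this share. Against the median of the 6 muscle arrays, which lay on the same slide, the excess on the 2 arrays was 2.59 and 2.23 for Svs2, 2.78 and 3.24 for Svs4, 2.93 and 3.05 for Svs5, and 2.34 and 2.31 for Svs6. The excess of Svs3a was 0.56 and 0.15 and that of Svs3b 0.55 and 0.13.

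Ordered by group mean, Svs4 was highest in congenic adipose tissue at 11.69 ± 0.65 (SD, n = 3), followed by congenic muscle at 10.69 ± 1.91, B6 adipose tissue at 10.28 ± 0.73 and B6 muscle at 9.68 ± 0.18. Each of these 4 neighbours lay within 1 SD of the more variable one. The 4 brain and liver groups followed between 9.09 and 9.21 and did not differ from each other beyond their spread. Svs5 had the same order of its upper groups, with 10.19 ± 0.95 in congenic adipose tissue, 9.37 ± 1.76 in congenic muscle, 8.59 ± 0.52 in B6 adipose tissue and 8.38 ± 0.11 in B6 muscle. In congenic muscle 1 array accounts for the SD of both genes.

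The exon features show where in each gene the signal arose. The second exon of Svs4, at chromosome 2, 164340382 to 164340687 in the coordinates of the files (their build is not given in the sources used here), was the feature with the largest excess. Its level was 12.18 on congenic adipose 1 and 12.10 on congenic muscle 3. It was 10.40 and 10.16 on the other congenic adipose arrays, and 9.97, 6.81 and 9.44 on the B6 adipose arrays. The other 5 muscle arrays lay between 6.99 and 7.49 and the 12 brain and liver arrays between 6.56 and 7.54. B6 adipose 2 was thus within the range of the brain and liver arrays. The other 5 adipose arrays were above the brain and liver arrays and above those 5 muscle arrays. The raw intensity of this exon in one transcript's row was 6202 on congenic adipose 1, 1128 on B6 adipose 1 and 532 on B6 adipose 2.

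Other internal and last exons of Svs2, Svs4, Svs5 and Svs6 were also above the other muscle arrays on congenic adipose 1 and congenic muscle 3, by different amounts. The last exon of Svs6 was 11.36 on congenic adipose 1 and 11.04 on congenic muscle 3, against 6.90 to 7.35 on the other muscle arrays. The long second exon of Svs2 was 10.36 and 10.50, against 6.93 to 7.06. A 55-base row at the last exon of Svs5 was 12.64 and 12.31, against 8.12 to 8.54. A 171-base row of Svs5 with the same first base was 12.34 and 11.90, against 10.65 to 11.17, a smaller excess. An internal Svs6 exon of 218 bases was 8.91 and 8.75, against 6.75 to 7.80. On the other congenic adipose arrays the Svs6 last exon was 9.92 and 8.54, and on the B6 adipose arrays it was 8.58, 6.77 and 8.36. The genotypes overlapped at this exon, since B6 adipose 1 stood above congenic adipose 3.

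First exons of Svs2, Svs3a, Svs5 and Svs6 were bright on every array and added little. The first exon of Svs2 lay between 10.35 and 11.39 on all 24 arrays, and that of Svs3a between 11.65 and 12.51. In Svs3b the last exon was the bright one, at 10.54 to 11.76, and the first exon was dim. In the Svs3a row the probe coefficient of variation, the SD of the probes of a row over their mean, had a median of 1.99 over arrays, so that few of its 5 probes carried the signal. In the second exon of Svs4 the median was 0.34. A 64-base row at the first exon of Svs4 was 11.42 on congenic adipose 1 and 11.90 on congenic muscle 3, below the 12.31 of B6 muscle 1. Congenic adipose 1 and congenic muscle 3 were both above the other 22 arrays in 2 of 3 features of Svs2 and 4 of 5 of Svs4. The same held for 5 of 5 features of Svs5, 3 of 4 of Svs6, and 0 of 3 each of Svs3a and Svs3b. These values chose the genes, and the share over all 3099 exon features was not counted, so nothing is read from these counts.

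**Figure D2:**
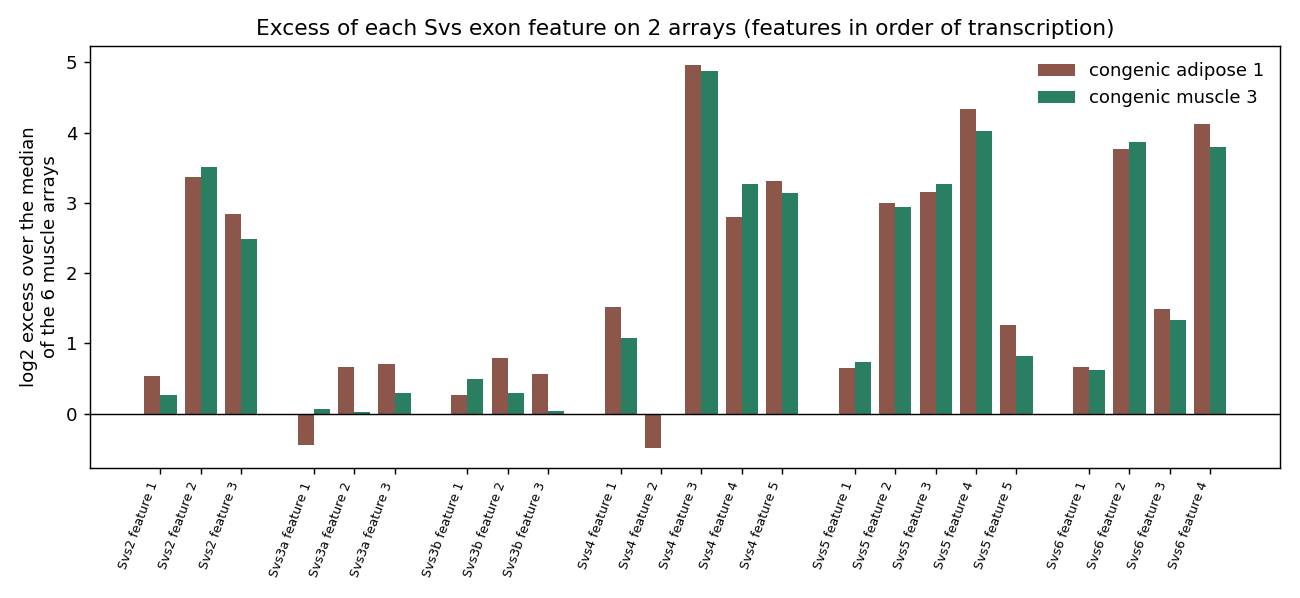
Excess in log2 normalized intensity over the median of the 6 muscle arrays (vertical axis) of each of the 23 exon features, in order of transcription within each gene, on congenic adipose 1 (brown) and congenic muscle 3 (green). Features of the same gene reach 4.96 and 4.88 in the second exon of Svs4 and reach at most 0.79 in the Svs3a and Svs3b features.

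Between genotypes, the limma fit over all 341 genes with Benjamini-Hochberg adjustment called 0 of 6 members in brain, where 0.88% of all genes were called. The congenic minus B6 difference in brain ran from -0.14 ± 0.49 (SE) for Svs6 to 0.01 ± 0.17 for Svs3a, with adjusted p from 0.971 to 0.994. In liver 0 of 6 members were called, against 0.587% of all genes. The differences there ran from -0.40 ± 0.49 for Svs6 to 0.04 ± 0.17 for Svs3b, with adjusted p from 0.813 to 0.987. The Svs6 value rested on B6 liver 1 and was 0.02 without it. At an unadjusted p under 0.05 limma passed 0 of 6 members in either tissue, against 10.9% of all genes in brain and 13.2% in liver. The congenic arrays were all above, or all below, the B6 arrays for 0 of 6 members in brain, where 6.45% of all genes were so above and 5.28% below, and for 0 of 6 in liver (8.5% and 7.04%). The differences between brain and liver passed the threshold for 0 of 6 members, against 34.3% of all genes. The largest of these differences was that of Svs6, -0.25 ± 0.34, which also rested on B6 liver 1 and was -0.04 without it, and the smallest adjusted p was 0.212, for Svs3b. At an unadjusted p under 0.05 that contrast passed 0 of 6 members and 40.8% of all genes.

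The adipose and muscle contrasts contain the values that chose the genes, and are given as a description. In adipose tissue the congenic mean was higher by 1.14 ± 0.47 (SE) for Svs2, by 1.42 ± 0.58 for Svs4, by 1.60 ± 0.55 for Svs5 and by 1.16 ± 0.49 for Svs6. For Svs3a it was 0.21 ± 0.17 and for Svs3b 0.20 ± 0.17. Of the 6 members 0 were called, against 1.47% of all genes, and 4 had an unadjusted p under 0.05, against 7.92% of all genes. The 3 members whose congenic arrays all stood above the B6 arrays (Svs4, Svs5 and Svs6) compare with 5.28% of all genes, and 0 members against 8.8% stood all below. In muscle the differences were 0.68 for Svs2, 1.004 for Svs4, 0.996 for Svs5 and 0.97 for Svs6. There 0 of 6 were called (0.587% of all genes), and 0 had an unadjusted p under 0.05 with limma (4.99% of all genes). In 2 members, Svs3b and Svs6, all congenic arrays stood above all B6 arrays, against 11.4% of all genes, and in 0 all stood below, against 10.3%.

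Both contrasts are also given without congenic adipose 1 and congenic muscle 3. These arrays are left out for their level of the same genes, so the counts of members past the threshold are a description and nothing is read from them. In muscle the Svs4 difference went from 1.004 to -0.10 ± 0.27 and that of Svs5 from 0.996 to -0.02 ± 0.18, with 0 of 6 called (0.587% of all genes). In adipose tissue the difference stayed positive, at 1.05 ± 0.27 for Svs4 and 1.05 ± 0.18 for Svs5. It was 0.60 ± 0.24 for Svs2 and 0.65 ± 0.30 for Svs6. The count past the threshold was 2 of 6 (Svs4 and Svs5), against 2.93% of all genes. This fit compares 2 congenic with 3 B6 adipose arrays. For adipose tissue against muscle, 0 of 6 members were called with all arrays (36.1% of all genes), and 0 had an unadjusted p under 0.05 with limma (46.9%). Without the 2 arrays the adipose excess was 1.17 ± 0.19 for Svs4, 0.76 ± 0.13 for Svs5, 0.66 ± 0.17 for Svs2 and 0.59 ± 0.21 for Svs6, and 4 of 6 were past the threshold (34.3% of all genes).

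The authors' own probe-level values, deposited as a table for the whole series, also hold high Svs genes in 1 congenic adipose and 1 congenic muscle column, under other replicate numbers. The column of congenic muscle 1 held Svs4 at 11.63 and Svs5 at 11.07 on the log2 scale of that table, while the other congenic muscle columns held 7.52 and 7.42 for Svs4 and 7.41 and 7.40 for Svs5. The column of congenic adipose 3 held 11.32 for Svs4 and 10.92 for Svs5. The other congenic adipose columns held 9.50 and 9.89 for Svs4, and the B6 adipose columns 8.87, 7.36 and 8.66. In brain and liver Svs4 lay between 7.02 and 7.39. The 3 highest groups came in the same order in both sources for Svs4 and Svs5. Against the muscle median of the table, the excess in the columns of congenic adipose 3 and congenic muscle 1 was 3.79 and 4.11 for Svs4 and 3.498 and 3.65 for Svs5, more than in the per-sample files, and 1.10 and 1.83 for Svs2 and 1.39 and 1.58 for Svs6, less than there. Svs2 reached 8.94 in the column of congenic muscle 1 and 8.21 in that of congenic adipose 3, and Svs6 reached 7.996 and 7.80. Svs2 did not overlap between genotypes in adipose tissue in the table, unlike in the per-sample files. The B6 columns held 7.57, 7.02 and 7.28 and the congenic columns 7.61, 7.91 and 8.21. This was not particular to Svs2, since no member overlapped there. For Svs3a the highest B6 column held 7.257 and the lowest congenic column 7.258, and for Svs3b they held 6.73 and 6.77. The share of all genes in the table without overlap was not counted, so nothing is read from this.

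**Figure D3:**
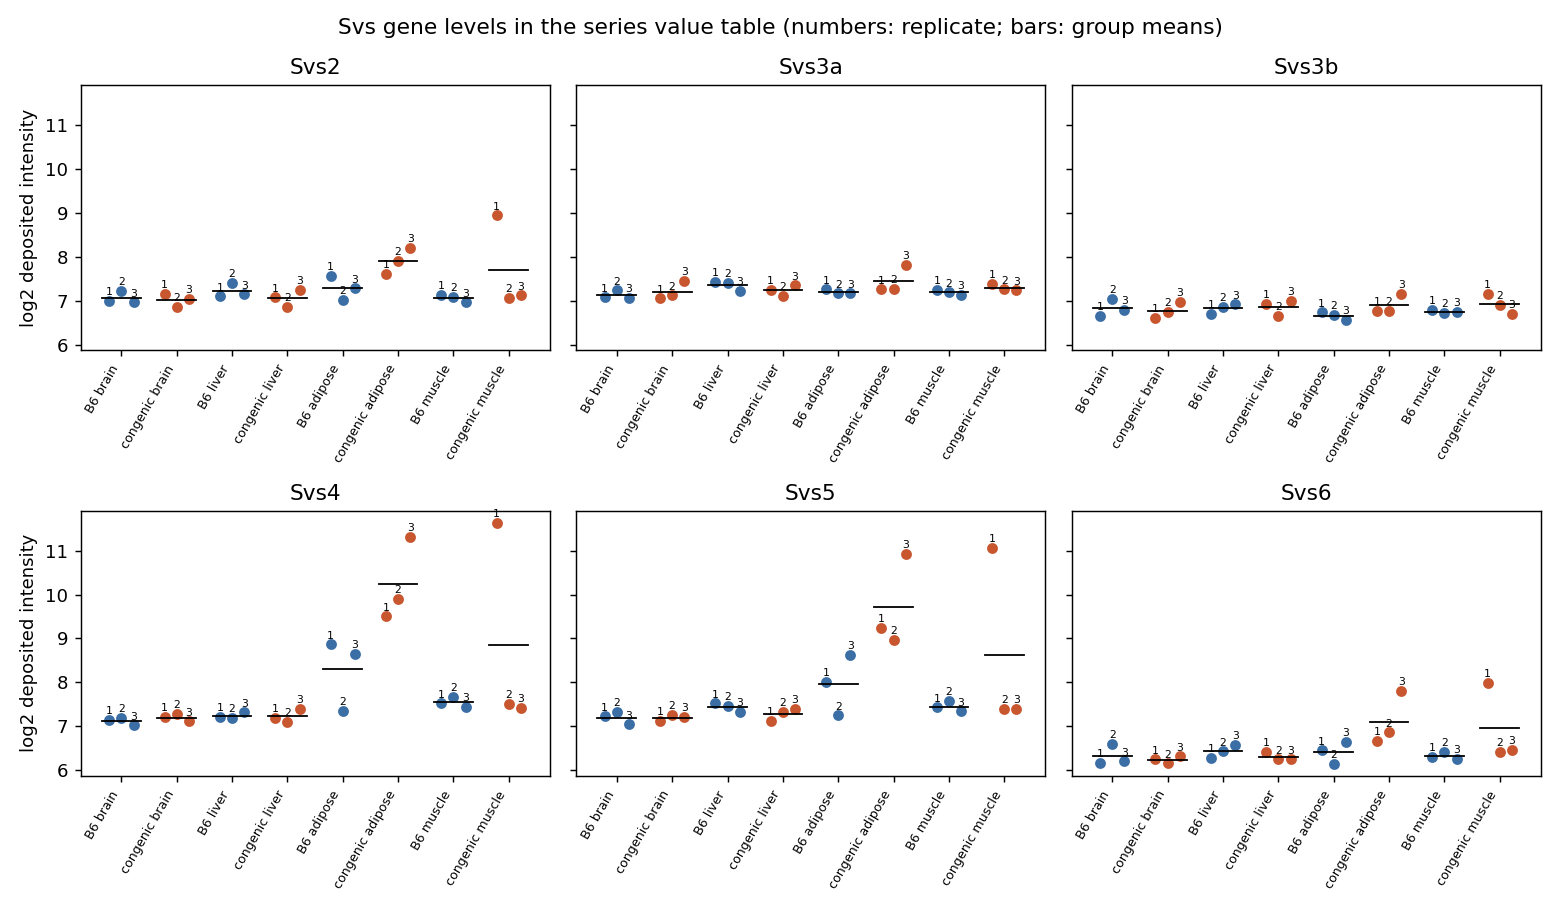
Log2 of the authors' deposited intensity (vertical axis) for the 6 Svs genes in each column of the value table, by genotype and tissue (blue, B6; orange, congenic; digits, replicate numbers of the table; bars, means of 3 columns). The high columns carry the numbers congenic adipose 3 and congenic muscle 1, with Svs4 at 11.32 and 11.63.

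At the level of single probes, an excess above 1 over the median of the 6 muscle columns in both of these columns was found for 61 of the 118 Svs probes and for 30 of the 13270 other probes. Svs4 had 25 of 30 such probes and Svs5 had 21 of 31. Svs2 had 7 of 15 and Svs6 had 7 of 12, against 1 of 15 for Svs3a and 0 of 15 for Svs3b. The largest excess of a probe was 6.21 and 6.30 for Svs4, 5.55 and 5.04 for Svs6, 5.39 and 5.42 for Svs5, and 4.52 and 4.74 for Svs2, in the adipose and the muscle column. These shares follow from the same values that chose the genes. Svs4 and Svs5 are each represented by 2 transcripts with probes over shared exons, so their probes are not all separate positions and the counts can hold a position more than 1 time.

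**Figure D4:**
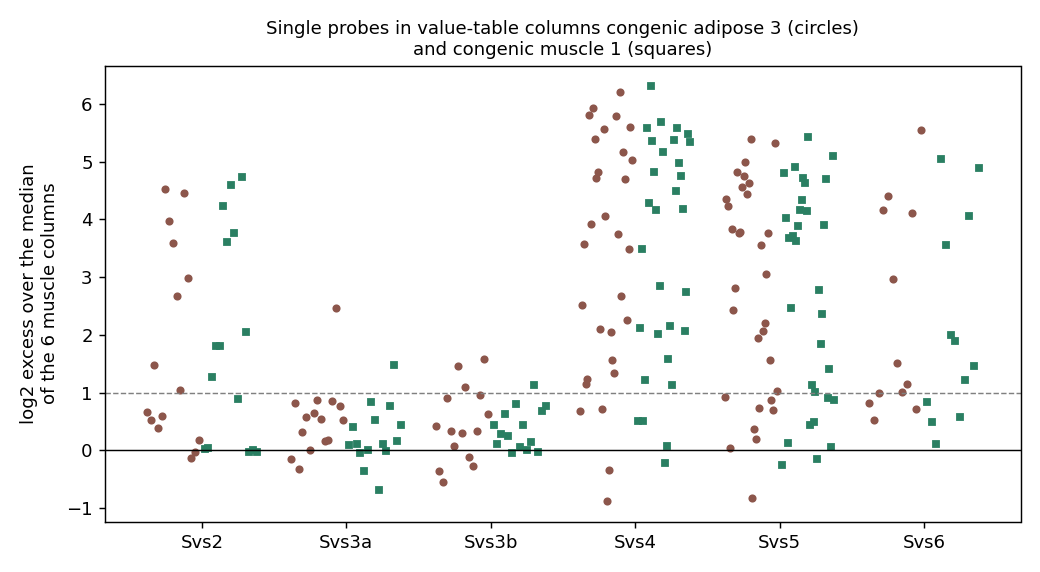
Excess in log2 deposited intensity over the median of the 6 muscle columns (vertical axis) for each of the 118 probes of the 6 genes in the value-table columns congenic adipose 3 (brown circles) and congenic muscle 1 (green squares). The dashed line marks an excess of 1, passed in both columns by 25 of 30 Svs4 probes and 0 of 15 Svs3b probes.

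The members varied together to different degrees inside the groups. After the group means were removed, over 24 arrays, Pearson's r was 0.95 for Svs4 with Svs5, 0.94 for Svs2 with Svs5, 0.93 for Svs2 with Svs4, and 0.89, 0.88 and 0.85 for Svs6 with Svs4, Svs5 and Svs2. Without the 2 high arrays these values were 0.75, 0.66, 0.79, 0.64, 0.40 and 0.33. Svs3a and Svs3b had r = 0.80 with each other (0.76 without the 2 arrays), and r between 0.27 and 0.49 with the other members. The genes were chosen by their levels on these same arrays, which also share slide and normalization. These coefficients are therefore a description only.

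Of the genes that are not members, the beta-defensin gene Defb20, known from the epididymis, followed the mean of the members most closely within groups (r = 0.60, and 0.22 without the 2 high arrays). It was followed by Bpi, which encodes a bactericidal protein (r = 0.56, and 0.54 without), the nuclear receptor coactivator gene Ncoa3 (0.49 and 0.55), the spindle gene Tpx2 (0.47 and 0.24), the cystatin-family gene Cstdc2 (0.45 and 0.60) and 4930556L07Rik (0.44 and -0.08). With all arrays each of these was below the within-group r of the 4 high members with each other. Without the 2 high arrays this did not hold, since Cstdc2, Ncoa3 and Bpi then had a higher r than Svs6 with Svs2 or Svs5. The comparison sets r with the mean of the members beside r between single genes, which are unlike measures. With group means left in, the closest were Defb20 (0.58), the sorting nexin gene Snx5 (0.56), the cystatin gene Cst11 (0.56), Bpi (0.55), the protease inhibitor gene Spint4 (0.55) and the ribosomal gene Rplp0 (0.53).

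The cluster spans 98.466 kb in the coordinates of the files, from 164299277 to 164397742 on chromosome 2, in the order Svs2, Svs3b, Svs4, Svs3a, Svs6, Svs5. The Svs3 genes thus lie between genes that were high. No other measured gene lay inside. On the near side, the protease inhibitor family gene Wfdc15b was 12.07 to 12.95 on the 6 adipose arrays and 9.48 to 10.10 on all others. It was 12.16 on congenic adipose 1 and 9.72 on congenic muscle 3, so neither array was set apart. Wfdc15a lay between 10.19 and 10.73 on all arrays. On the far side, Slpi, which encodes the secretory leukocyte protease inhibitor, lay between 10.72 and 11.28, and Matn4, a matrilin gene, between 9.19 and 9.87.

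Markers of tissues next to the dissected ones were read beside the Svs levels. In a bulk sample, fewer cells of a type and less RNA per cell cannot be told apart. Of 27 genes listed for epididymis and testis, 12 were measured. Their mean level was 11.20 to 11.32 on the 6 adipose arrays and 9.47 to 9.72 on the brain and liver arrays. Not every listed gene was set apart in adipose tissue: Cst9, Cst13, Defb19, Defb29 and Defb36 overlapped other tissues. Cst13 was 8.07 to 8.29 on the adipose arrays and 8.12 to 8.91 on the brain and liver arrays. In muscle the mean of the 12 genes was 9.79 on B6 muscle 3, 9.73 on congenic muscle 3 and 9.45 to 9.54 on the other 4. On congenic adipose 1, the array highest in Svs genes in that tissue, the mean was 11.20, and 2 of 12 genes were the highest of the 6 adipose arrays. On congenic muscle 3, 0 of 12 were the highest of the 6 muscle arrays. Cst11 was 10.28 on congenic muscle 3, 10.52 on B6 muscle 3 and 9.55 to 9.67 on the other muscle arrays, and Defb20 was 10.15, 10.24 and 8.99 to 9.17. B6 muscle 3 had Svs4 at 9.70 and Svs5 at 8.31, within the other muscle arrays. Spint4 was 8.84 on congenic muscle 3, 9.08 on B6 muscle 3 and 8.29 to 8.38 on the other muscle arrays. By smaller steps, Cst12 was 9.71, 9.99 and 9.54 to 9.63, and Defb21 was 9.32, 9.62 and 9.11 to 9.29. The remaining genes of the list lay within the other muscle arrays on congenic muscle 3, such as Eppin at 8.52 (8.47 to 8.60 over the others) and Defb36 at 12.17 (11.93 to 12.20). For Cst12 and Defb21 the step on congenic muscle 3 was smaller than the range of the other 4 muscle arrays. Cst11, Defb20 and Spint4 were above those 4 arrays on congenic muscle 3, where Svs genes were high, and on B6 muscle 3, where they were not. The part of other tissue in these levels was not tested.

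**Figure D5:**
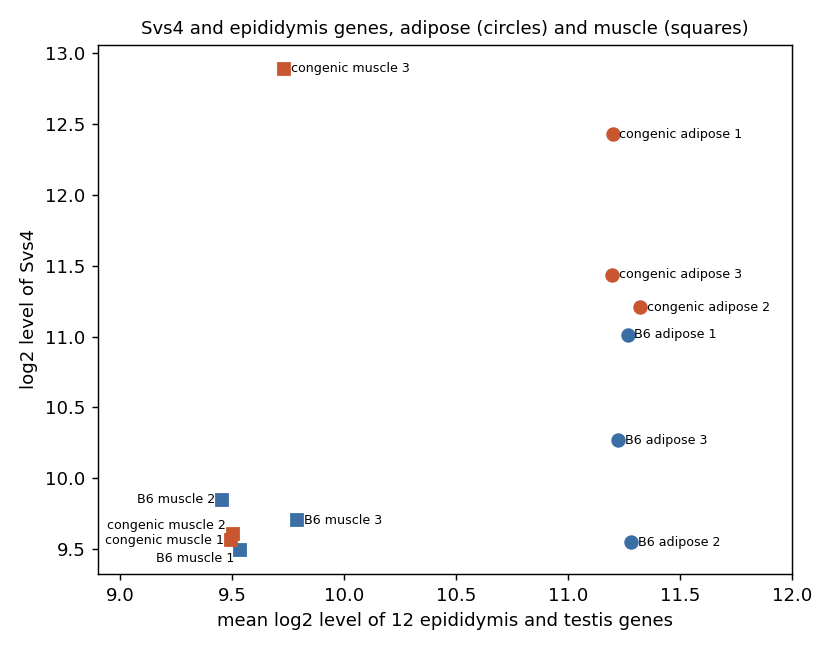
Log2 level of Svs4 (vertical axis) against the mean log2 level of 12 epididymis and testis genes (horizontal axis) on the 6 adipose arrays (circles) and 6 muscle arrays (squares; blue, B6; orange, congenic). Adipose arrays lie between 11.20 and 11.32 on the horizontal axis whatever their Svs4 level, from 9.55 to 12.43, and congenic muscle 3 stands at 9.73 with Svs4 at 12.89.

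Of 10 listed neighbours expressed in seminal vesicle or prostate, 6 were measured (Wfdc12, Wfdc15a, Wfdc15b, Slpi, Spint4 and Eppin). Spint4 and Eppin are also in the epididymis and testis list, so the 2 lists are not separate readings. In these, 0 of 6 were highest on congenic adipose 1 among the adipose arrays, and 0 of 6 on congenic muscle 3 among the muscle arrays. On congenic muscle 3 Spint4, at 8.84, was below B6 muscle 3 at 9.08 and above the other muscle arrays at 8.29 to 8.38. Their mean was 10.87 on congenic adipose 1 (10.82 to 11.13 over adipose arrays) and 9.58 on congenic muscle 3 (9.41 to 9.65 over muscle arrays). The muscle label of congenic muscle 3 was borne out by the 2 measured genes of the 4 listed for muscle. Mylk2 was 11.10 on congenic muscle 3, 10.83 to 11.43 on the other muscle arrays and 8.94 to 9.17 on the adipose arrays. The troponin gene Tnnc2 was 14.57 on congenic muscle 3 against 14.41 to 14.56 on the other muscle arrays, and it was 9.39 to 9.78 on the adipose arrays. For adipose tissue the 5 measured adipocyte genes do not settle the label. They averaged 10.12 on congenic adipose 1, the lowest of the 6 adipose arrays (10.13 to 10.22 on the others), and 10.12 on B6 liver 2 as well. Lep, the leptin gene, reached 9.89 in brain and 9.94 in liver and 9.66 at most in adipose tissue. Adig, which encodes the adipocyte protein adipogenin, was 11.44 on congenic adipose 1, 11.38 to 11.94 on the adipose arrays and 11.29 at most elsewhere. The hepatocyte, neuronal, immune and endothelial lists averaged within 10.02 to 10.17, 9.64 to 9.84, 9.99 to 10.58 and 10.04 to 10.29 over the 12 adipose and muscle arrays.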

How the data were processed

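The members and gene lists were chosen with earlier results of these data known. Per the file headers, the deposited per-sample files hold a mean perfect-match intensity per exon row on a linear scale, and a score, the coefficient of variation of the probes of the row. No mismatch signal had been subtracted in 100% of rows. The deposited value table holds an intensity per probe, with column medians of 438.6 to 441.3; its values are linear and not centred by gene, and single-channel values have no direction. The submitters' processing notes name RMA. The genome build of the coordinates is not given in the sources used here.

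Intensities were corrected with normexp (offset 50) and quantile normalized over 24 arrays, then log2 was taken, exon rows with the same coordinates were averaged, and features were summarised by median polish to 341 genes (301 with a symbol). A limma 3.58.1 model in R 4.3.3 with a mean for each of 8 groups gave moderated tests, adjusted by Benjamini-Hochberg over 341 genes, with a threshold of 0.05. The number of arrays, 3 per group, limits the precision, and the files carry no detection call. Of the genes that are not members, the text names the 6 nearest in pattern within groups, the 6 nearest without removing group means, 2 neighbours on each side of the cluster, and listed markers by counts. The fit was tested on simulated data. Promoters were searched in Python 3.11.15 and aligned with Biopython 1.88. No column of per-sample values was left unused.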

Additional observations from a re-analysis of the deposited data

How the results depend on the processing

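With all 24 arrays 0 of 6 members were called in each of the 6 contrasts. The count moved in the adipose contrast between genotypes, to 2 (Svs4 and Svs5) without congenic adipose 1 and congenic muscle 3, and to 2 in the value table without its columns congenic adipose 3 and congenic muscle 1, an alternative chosen after seeing the data. It moved in the contrast of adipose tissue with muscle, to 4 and to 3 (Svs2, Svs4 and Svs5) under the same settings. Leaving out 1 array at a time gave 0 to 2 and 0 to 4 in these contrasts. The upper ends came without congenic muscle 3, where the adipose differences of Svs4 and Svs5, 1.42 and 1.60, are the same and the spread that all groups share in the fit is smaller. These counts leave out arrays or columns picked out by their Svs level and are a description. In the other 4 contrasts, leaving out each array gave 0. Other background correction, normalization, summary, dim-feature filter (13 of 23 Svs features left), arrays in the fit, the value table with all columns, and slide and well row as blocks gave 0 in all 6.

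The same replicate numbers occur in every group, and with the replicate number as a block 0 of 6 members were called in each contrast. Of 12 pairs of B6 and congenic samples with the same number, 5 had correlated deviations over 0.1 (range -0.45 to 0.51), so the numbers were not taken to pair the samples. These pairs lie within a tissue. Whether samples of different tissues with the same number came from 1 mouse was not tested.

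Of 1224 differences of single members under the alternatives, 17 passed the threshold that the full fit did not pass, and 64 changed sign without a call. The count of all genes called went from 5 to between 1 and 11 for genotype in adipose tissue, from 3 to between 0 and 4 in brain, from 2 to between 0 and 8 in liver, and from 2 to between 1 and 6 in muscle. It was 10 without the 2 high arrays, 9 in the value table, 3 with the replicate block and 3 when well rows were blocked, in adipose tissue. The standard errors between genotypes, 0.17 to 0.58, include the spread of the 2 high arrays in the shared fit: without them that of Svs4 was 0.27 and that of Svs5 0.18.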

Other observations

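Svs6 was 8.52 on B6 liver 1, above the other 11 brain and liver arrays, which did not pass 7.60. Its internal exons were 8.73 and 10.16 there, while its last exon was 6.93, within the 6.54 to 7.67 of the brain and liver arrays. Svs4 was 9.47 and Svs5 8.08 on the same array. On the high adipose and muscle arrays the last exon was among the brightest features of Svs6, so the 2 patterns differ within the gene.

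On the second slide, congenic adipose 1 lay in well C3 and the arrays in the wells that touch it on a side held Svs4 at 9.49, 9.56 and 9.60. Congenic muscle 3 lay in well A4, and the touching arrays held Svs4 at 9.55 and 11.44, the second being congenic adipose 3.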
